A study of Mus musculus with 119 samples.

Results

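In all, 6 genes of the ETS family of transcription factors were followed: Ets2, Etv3, Etv6, Elf1, Elf4 and Fli1. They were taken by their gene symbols, as 6 of 18098 genes in the expression table, and all of them lie outside the ternary complex factor (TCF) subfamily, which holds Elk1, Elk3 and Elk4. All 6 passed the filter on low values. The cells were bone marrow-derived macrophages (BMDMs), grown for a week from femoral marrow of C57BL/6(NIMR) mice in L-cell conditioned medium and rested overnight in low serum, and were left without LPS or given LPS at 100 ng/ml, the bacterial ligand of TLR4. The 119 RNA-seq libraries fell into 25 groups. WT cells contributed 6 libraries for unstimulated cells, 6 each for LPS times of 0.5 and 1 h, and 4 for 2 h. Map3k8[D270A] cells, whose TPL-2 kinase is catalytically inactive, gave 6 at each of these times, and Elk1-/-Elk4-/- cells, which lack a pair of TCFs, gave 4 at each. Nfkb1[SS/AA] cells, whose p105 carries changed IKK target serines and is not degraded on stimulation, contributed 6 unstimulated libraries and 6 each for 0.5 and 1 h. WT cells pretreated for 10 min with the MKK1/2 inhibitor PD0325901 at 0.1 µM contributed 6 libraries to each of the LPS times 0.5 and 1 h, and WT cells with PD0325901 alone gave 3 each at 10, 40 and 70 min, beside 3 with the solvent DMSO for 10 min. WT cells pretreated for 10 min with the RSK inhibitor RSKi47 at 2 µM contributed 3 libraries for 0.5 h of LPS and 4 for every other time, the unstimulated one included.

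ETS factors share a winged helix-turn-helix domain that binds DNA at a GGAA or GGAT core, and differ in their partners and in whether they activate or repress. In macrophages the pathway under study runs from TLR4 through IKK, p105 and TPL-2 to MKK1/2, ERK1/2 and RSK. TCFs are ERK targets that bind DNA together with SRF. Among the 6 genes, Ets2 encodes an activator that ERK also phosphorylates, Etv3 and Etv6 encode repressors of target transcription, Elf1 and Elf4 encode related activators of blood cells, and Fli1 encodes an activator best known from megakaryocytes and blood vessels. On the mouse assembly GRCm38 the genes lie on chromosome 16 from 95702407 to 95721049 (Ets2), 3 from 87525577 to 87540158 (Etv3), 6 from 134035700 to 134270158 (Etv6), 14 from 79481174 to 79582491 (Elf1), X from 48411049 to 48463132 (Elf4) and 9 from 32422204 to 32543432 (Fli1).

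Etv3, Etv6 and Ets2 rose by at least 1 on the log2 scale in WT cells given LPS, and their promoters are shown for that reason. Each window holds 250 bases before and 50 bases from the RefSeq start of the gene (GRCm38.p6, plus strand in all 3), and was searched on both strands for TGANTCA (AP-1), TGACGTCA (CRE), CGGAAG (an ETS core), GAAANNGAAA (ISRE), the CArG box of SRF and the kappaB site. Capitals mark the matches.
Ets2 chr16:95702157-95702456: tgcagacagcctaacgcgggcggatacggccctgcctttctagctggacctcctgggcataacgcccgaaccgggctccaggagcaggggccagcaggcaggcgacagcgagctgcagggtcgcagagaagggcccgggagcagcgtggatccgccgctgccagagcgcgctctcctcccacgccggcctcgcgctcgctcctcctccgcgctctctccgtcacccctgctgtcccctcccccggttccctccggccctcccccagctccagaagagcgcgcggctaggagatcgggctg
Etv3 chr3:87525328-87525627: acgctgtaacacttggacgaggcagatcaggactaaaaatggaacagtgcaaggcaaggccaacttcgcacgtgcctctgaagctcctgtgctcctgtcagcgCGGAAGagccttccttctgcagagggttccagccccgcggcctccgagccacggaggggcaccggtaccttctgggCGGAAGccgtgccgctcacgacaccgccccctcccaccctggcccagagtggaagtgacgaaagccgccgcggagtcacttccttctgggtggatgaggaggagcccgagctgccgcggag
Etv6 chr6:134035450-134035749: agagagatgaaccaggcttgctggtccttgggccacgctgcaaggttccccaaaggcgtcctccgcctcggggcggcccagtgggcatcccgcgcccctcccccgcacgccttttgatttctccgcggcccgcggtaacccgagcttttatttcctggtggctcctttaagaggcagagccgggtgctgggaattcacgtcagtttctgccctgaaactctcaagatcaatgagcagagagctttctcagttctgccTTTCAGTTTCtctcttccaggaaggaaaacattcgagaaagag
The Etv3 window held CGGAAG at 2 places on the gene's own strand, from -147 to -142 and from -71 to -66 relative to the start. Of all 32851 promoter windows of this length, 16.9% held these letters. The shorter GGAA or GGAT core was not searched for, so its matches are neither marked nor counted in any window. The Etv6 window held 1 ISRE match, on the opposite strand from 8 to 17, a motif in 3.44% of windows. The Ets2 window held none of the letters searched for. AP-1, CRE, CArG box and kappaB letters were in none of the 3 windows, and in 7.81%, 1.79%, 1.63% and 8.46% of all windows. Of the 6 genes, 5 had a window in the table. Elf1 and Elf4 had 2 windows each, for different starts, and TGANTCA was in 1 of each: chr14:79515424-79515723 for Elf1, which lies inside the gene, and chrX:48463083-48463382 for Elf4. These matches describe letters and not binding.

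All values below are normalised and on a log2 scale. The study plots log2-transformed normalised counts, but no source used here says that the deposited values were made in that way, so whether a difference of 1 is exactly a doubling of counts is not known. The table holds no counts, so the depth of each library is not known from it. The libraries are described as biological replicates, but the labels do not say whether each came from a separate mouse, and p-values measure only the spread between these libraries. All 8 macrophage markers were present, with group means from 9.83 to 18.52 on the log2 scale. The 8 neutrophil markers summed, on a linear scale, to 70 to 2108 per library, against 335209 to 615521 for the macrophage markers. The 6 T cell markers summed to 1268 to 3661, with Cd28 highest and 2 of them reaching the minimum level of 10 on a linear scale. In WT cells they summed to 2072 to 3422 without LPS and 1531 to 1775 at 2 h, and their part in the differences was not tested. In bulk RNA, fewer cells of a type and less RNA per cell cannot be told apart. In Elk1-/-Elk4-/- cells without LPS, Elk1 was 6.22, 6.42, 6.59 and 6.22, against 9.07 to 9.22 (median 9.13) in WT cells, and Elk4 was 5.59, 5.88, 5.83 and 5.54, against 7.57 to 7.80 (median 7.77), so each knocked-out gene was lower in every library. The point mutations of the other genotypes are not visible in mRNA amounts.

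Some libraries stood apart from the rest of their group. Of 119 libraries, 9 were more than 1.5 times as far from the other libraries of their group as the median library: all 6 Map3k8[D270A] libraries at 2 h, which form a set of replicates 1 to 3 and a set of replicates 4 to 6, Nfkb1[SS/AA] replicate 2 at 1 h, and RSKi47 replicate 4 without LPS and at 2 h. WT libraries likewise fell into replicates 4 to 6 and 7 to 9, and Ets2 shows it: without LPS it was 10.46, 10.48 and 10.47 in the first set and 10.80, 10.84 and 10.93 in the second, and at 1 h 12.15, 12.13 and 12.03 against 11.77, 11.94 and 11.81. At 0.5 h it was 10.79, 10.73 and 10.76 against 11.09, 11.24 and 11.24. The second set was thus higher without LPS and at 0.5 h and lower at 1 h, with no overlap. At 2 h the second set is a single WT library, replicate 7, so any test within it at that time assumes that this library varies like the libraries of the other groups. The labels put WT and Map3k8[D270A] libraries in a single experiment and the other genotypes and inhibitors in experiments of their own, so for those a difference from WT and a difference between experiments cannot be told apart. DMSO-treated WT cells and untreated WT cells, both without LPS, differed at 23.6% of genes tested, and here solvent and experiment cannot be told apart. Among the 6 ETS genes Elf4 passed, higher by 0.24 (SE 0.053, adjusted p = 0.000414).

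The first comparison asked what LPS does to these genes in WT cells. Etv3 rose at every time and Etv6 rose late, Ets2 rose to a peak at 1 h, Elf1 and Fli1 fell by 2 h, and Elf4 passed at no time. Of 18 tests, 12 passed an adjusted p of 0.05 in limma, 10 of them rises and 2 falls. At 0.5, 1 and 2 h, 3, 4 and 5 of the 6 genes passed, while 11.6%, 46.8% and 71.5% of all 11884 genes tested did. The median of the 6 differences was 0.14, 0.26 and 0.41, and that of all genes was -0.0043, 2e-04 and -0.018.

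Etv3, the repressor, went from 12.05 to 12.16 (median 12.13) without LPS to 12.61 to 12.92 (median 12.72) at 0.5 h and 13.38 to 13.46 (median 13.41) at 1 h, and was 13.90, 13.99, 14.20 and 13.79 at 2 h. No library of a later time overlapped those without LPS. The differences from cells without LPS were 0.62 (SE 0.067, adjusted p = 1.51e-10), 1.30 (SE 0.067, adjusted p = 7.53e-24) and 1.85 (SE 0.075, adjusted p = 6e-29). Etv6, the second repressor, was 9.94 to 10.14 (median 10.07) without LPS, 10.09 to 10.27 (median 10.17) at 0.5 h, 10.28 to 10.44 (median 10.33) at 1 h and 11.57, 11.42, 11.63 and 11.48 at 2 h. Most of its rise thus fell between the last 2 times, when every library was higher than at 1 h. It differed from cells without LPS by 0.12 (SE 0.061, adjusted p = 0.247), 0.28 (SE 0.061, adjusted p = 9.97e-05) and 1.47 (SE 0.069, adjusted p = 3.05e-26), of which the last 2 passed.

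Ets2, the activator, was 10.46 to 10.93 (median 10.64) without LPS, 10.73 to 11.24 (median 10.94) at 0.5 h, 11.77 to 12.15 (median 11.99) at 1 h and 11.47, 11.58, 11.40 and 11.38 at 2 h. The libraries of 0 and 0.5 h overlapped, and those of 1 and 2 h lay above all libraries without LPS. The differences were 0.31 (SE 0.085, adjusted p = 0.00901), 1.31 (SE 0.085, adjusted p = 8.63e-20) and 0.79 (SE 0.095, adjusted p = 1.11e-10). Within replicates 4 to 6 they were 0.29 (adjusted p = 0.000456), 1.63 (adjusted p = 1.95e-28) and 1.01 (adjusted p = 9.19e-21), and within replicates 7 to 9 0.33 (adjusted p = 2.49e-05), 0.98 (adjusted p = 1.02e-19) and 0.52 (adjusted p = 3.14e-07). The last of these, at 2 h, rests on 1 library with LPS. The rise passed in both sets, and its size was not compared between them by a test. In a fit on the compared libraries alone the rise at 0.5 h missed the threshold (adjusted p = 0.129).

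Fli1 was 10.07 to 10.15 (median 10.09) without LPS, 10.29 to 10.39 (median 10.33) at 1 h and 9.12 ± 0.12 (SD, n = 4) at 2 h, with a highest library of 9.28. It rose slightly by 1 h, by 0.24 (SE 0.044, adjusted p = 8.51e-06), and fell by 2 h to levels below every earlier library, with a difference of -0.97 (SE 0.049, adjusted p = 8.21e-25). Elf1 was 11.16 to 11.25 (median 11.23) without LPS, 11.32 to 11.41 (median 11.38) at 0.5 h, 11.15 to 11.28 (median 11.22) at 1 h and 10.89, 10.83, 10.93 and 10.92 at 2 h. It was higher at 0.5 h by 0.16 (SE 0.038, adjusted p = 0.00207) and lower at 2 h, with a difference of -0.32 (SE 0.042, adjusted p = 1.91e-09) and no overlap at either time. Elf4 did not pass at any time, and its differences of 0.0050, -0.049 and 0.029 had 95% intervals of -0.073 to 0.083, -0.13 to 0.029 and -0.058 to 0.12.

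Of 17 further ETS genes, 9 could be tested: Ets1, Elf2, Erf, Etv1, Etv5, Gabpa, Spi1, Spib and Spic. None passed at 0.5 h in limma, at 1 h 2 rose and 1 fell, and at 2 h 3 rose and 5 fell. Spi1, which encodes PU.1, the ETS factor that sets macrophage identity, was higher by 2 h by 0.93 (SE 0.043, adjusted p = 2.52e-26). No further ETS gene reached a difference of 1 in WT cells. All 3 TCF genes rose by 1 h, with a median difference of 0.31.

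**Figure D1:**
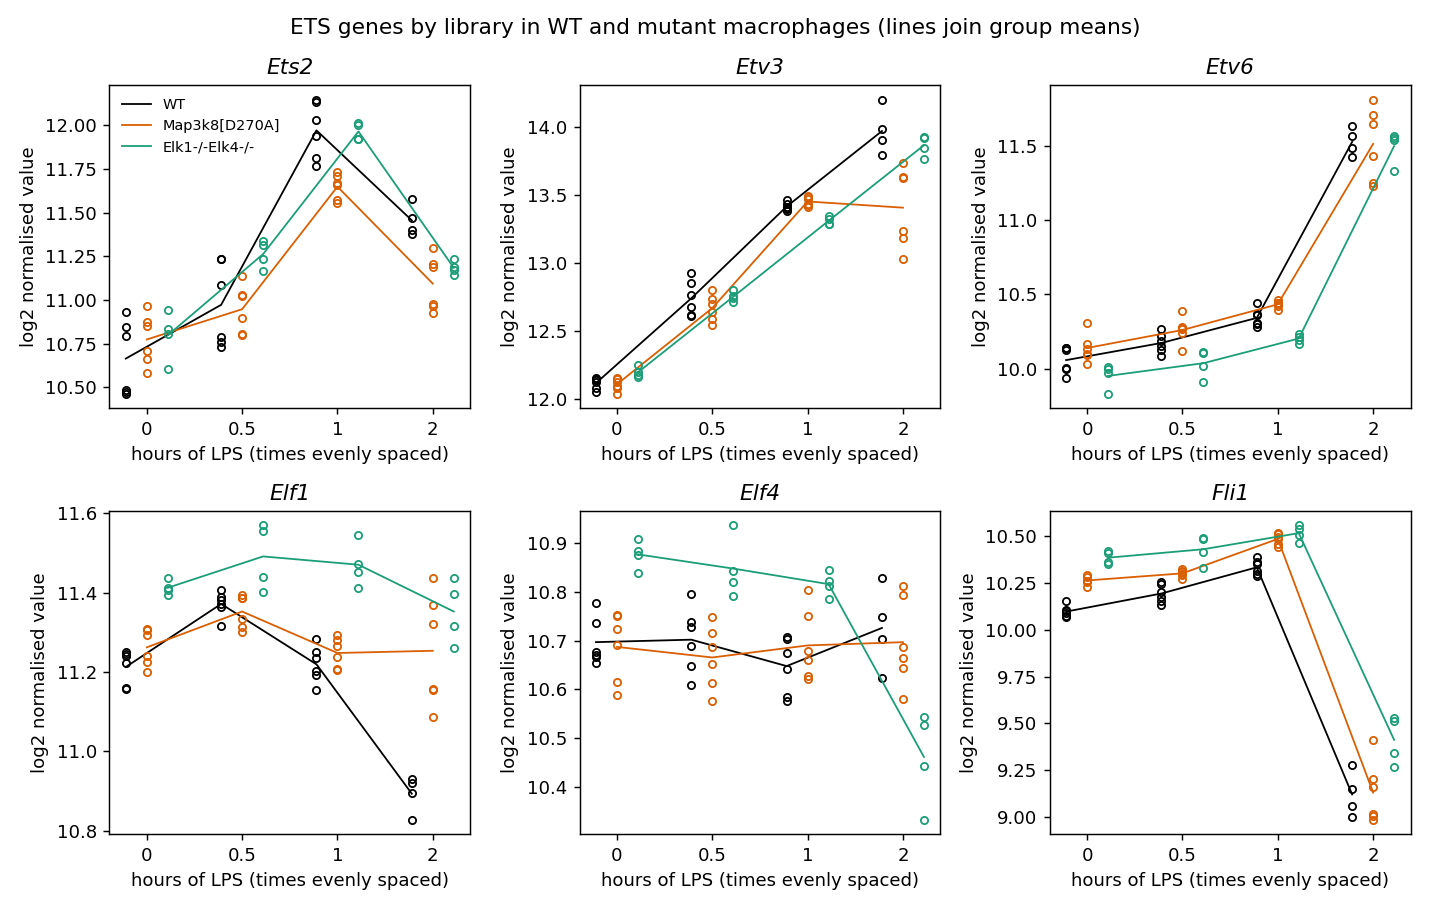
Log2 normalised value of each of the 6 ETS genes (vertical axis, a scale per gene) against hours of LPS (horizontal axis, times evenly spaced) in WT, Map3k8[D270A] and Elk1-/-Elk4-/- libraries. Each circle is a library and lines join group means; Etv3 climbed in WT cells to a mean of 13.97 at 2 h, above all Map3k8[D270A] libraries of that time, and the Elk1-/-Elk4-/- libraries of Fli1 lay above the WT ones at 0, 0.5 and 1 h.

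The second comparison asked which of these genes depend on TPL-2 kinase activity. In Map3k8[D270A] cells Ets2 was lower at 1 and 2 h of LPS, Etv3 was lower at 2 h alone, Elf1 was higher at 2 h and Fli1 was slightly higher without LPS and at 1 h. Etv6 and Elf4 passed at no time. In all, 6 of 24 tests passed, 3 higher and 3 lower. Without LPS and at 0.5, 1 and 2 h, 1, 0, 2 and 3 of the 6 genes passed, against 1.44%, 1.37%, 9.79% and 27.7% of all genes. At 0.5 h, where limma passed 0 of the 6, 1 had an unadjusted p below 0.05 (Fli1). The macrophage markers at 2 h summed to 417885 to 475800 in Map3k8[D270A] cells, against 478056 to 524758 in WT cells, without overlap. At the earlier times they overlapped, and their part was not tested.

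Ets2 at 1 h was 11.55 to 11.73 (median 11.66) in Map3k8[D270A] cells and 11.77 to 12.15 (median 11.99) in WT cells. At 2 h it was 10.93 to 11.30 (median 11.08), against 11.47, 11.58, 11.40 and 11.38. The groups did not overlap at either time. Its differences from WT were -0.32 (SE 0.085, adjusted p = 0.00752) and -0.36 (SE 0.095, adjusted p = 0.00259). With the replicate number as a block, which did not pair WT with mutant libraries, the one at 1 h was -0.18 and missed the threshold (adjusted p = 0.0904). The differences were 0.11 without LPS and -0.025 at 0.5 h, with 95% intervals of -0.057 to 0.28 and -0.19 to 0.14. Within the first sets, WT replicates 4 to 6 and mutant replicates 1 to 3, the difference was -0.40 (adjusted p = 7.8e-07) at 1 h and -0.53 (adjusted p = 2.88e-10) at 2 h. Within the second sets, WT replicates 7 to 9 and mutant replicates 4 to 6, it was -0.24 (adjusted p = 0.00418) and -0.15 (adjusted p = 0.259). The decrease at 2 h therefore passed in the first sets and missed in the second, where WT cells had a single library.

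Etv3 at 2 h was 13.63, 13.62 and 13.74 in mutant replicates 1 to 3 and 13.03, 13.19 and 13.23 in replicates 4 to 6, against 13.90, 13.99, 14.20 and 13.79 in WT cells. All 6 mutant libraries lay below all WT libraries, and the second mutant set below the first. The difference was -0.56 (SE 0.075, adjusted p = 3.79e-08), and within the sets it was -0.37 (adjusted p = 1.28e-07) and -0.64 (adjusted p = 5.52e-09), the second against the single WT library. At 1 h the same gene differed by 0.037 (95% interval -0.095 to 0.17). Elf1 at 2 h was 11.37, 11.32 and 11.44 in the first mutant set and 11.15, 11.09 and 11.16 in the second, against 10.89, 10.83, 10.93 and 10.92 in WT cells, again with no overlap. It was higher by 0.36 (SE 0.042, adjusted p = 1.19e-09). Within the sets the difference was 0.49 and 0.21, the second against the single WT library. Fli1 was 10.23 to 10.29 (median 10.26) without LPS and 10.44 to 10.51 (median 10.49) at 1 h in mutant cells, above all WT libraries (10.07 to 10.15, median 10.09, and 10.29 to 10.39, median 10.33). Its differences of 0.17 (SE 0.044, adjusted p = 0.0344) and 0.15 (SE 0.044, adjusted p = 0.0182) both missed the threshold in either set. Without LPS they were 0.15 (adjusted p = 0.154) and 0.18 (adjusted p = 0.0963) within the sets, and at 1 h 0.14 (adjusted p = 0.0814) and 0.16 (adjusted p = 0.058). The difference at 1 h also missed it without WT replicate 5 (adjusted p = 0.0591), and that without LPS in 10 alternatives, among them leaving out any of WT replicates 5 to 8 or of mutant replicates 1, 2, 4 and 6 (adjusted p from 0.0528 to 0.101). Etv6 at 2 h was 11.23 to 11.81 (median 11.54) in mutant cells and differed by -0.014 (95% interval -0.15 to 0.12), with 0.18 (adjusted p = 0.0294) in the first sets and -0.18 (adjusted p = 0.224) in the second.

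The third comparison set Elk1-/-Elk4-/- cells, without these TCFs, beside WT cells. Elf1 and Fli1 were higher at all 4 times, Elf4 was higher without LPS and at 0.5 and 1 h and lower at 2 h, and Ets2 was higher at 0.5 h and lower at 2 h. Etv3 and Etv6, the repressors, passed at no time. In all, 14 of 24 tests passed, 12 higher and 2 lower. The counts of 3, 4, 3 and 4 of 6 genes at 0, 0.5, 1 and 2 h stand beside 51.8%, 44.4%, 53.4% and 50.8% of all genes, so the share of the 6 genes was near or above that of all genes. The cells came from an experiment of their own, and their neutrophil markers summed to 1051 to 1476 per library without LPS, against 82 to 146 in WT cells. The macrophage markers were lower, at 335209 to 355949 without LPS and 409607 to 430175 at 2 h, against 398797 to 455154 and 478056 to 524758, without overlap at any of the 4 times. Without LPS, B cell markers summed to 99 to 136, against 58 to 89, without overlap. Megakaryocyte markers summed then to 19.5 to 22.3, against 15.4 to 18.6, also without overlap. The megakaryocyte sums overlapped at 0.5 h (18.1 to 24.8 against 16.1 to 18.5) and at 1 h (18.9 to 21.5 against 15.6 to 20.6), and not at 2 h. Endothelial markers overlapped without LPS and were higher at 2 h, at 382 to 473 against 258 to 291. Of the B cell, megakaryocyte and endothelial lists, 1 gene each reached the minimum level. The part of these markers in the differences was not tested.

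Elf1 in Elk1-/-Elk4-/- cells was 11.41, 11.44, 11.41 and 11.39 without LPS and 11.44, 11.40, 11.26 and 11.32 at 2 h, against 11.16 to 11.25 (median 11.23) and 10.89, 10.83, 10.93 and 10.92 in WT cells. The groups did not overlap at these times. Its differences were 0.20 (SE 0.042, adjusted p = 8.79e-05), 0.12 (SE 0.042, adjusted p = 0.0182), 0.25 (SE 0.042, adjusted p = 1.99e-06) and 0.46 (SE 0.046, adjusted p = 7.91e-12) from 0 to 2 h. The one at 0.5 h missed the threshold with quantile normalisation (0.076, adjusted p = 0.0795) and without WT replicate 4 or Elk1-/-Elk4-/- replicate 3 or 4 (adjusted p = 0.0508, 0.0808 and 0.111). Fli1 was 10.36, 10.42, 10.41 and 10.35 without LPS and 9.34, 9.53, 9.51 and 9.27 at 2 h. It was higher than in WT cells by 0.29 (SE 0.049, adjusted p = 2.74e-06), 0.24 (SE 0.049, adjusted p = 0.000103), 0.18 (SE 0.049, adjusted p = 0.00162) and 0.29 (SE 0.054, adjusted p = 1.09e-05), with overlapping libraries at 2 h alone. Elf4 turned from higher to lower: it was 10.81, 10.79, 10.82 and 10.84 at 1 h and 10.53, 10.54, 10.33 and 10.44 at 2 h, against 10.58 to 10.71 (median 10.66) and 10.75, 10.83, 10.70 and 10.62 in WT cells. The differences were 0.17 (SE 0.044, adjusted p = 0.00128) and -0.27 (SE 0.049, adjusted p = 9.67e-06). At 0.5 h the difference of 0.15 (SE 0.044, adjusted p = 0.00628) was 0.093 (adjusted p = 0.0774) against WT replicates 7 to 9 alone, and it missed the threshold without Elk1-/-Elk4-/- replicate 4 (adjusted p = 0.0574).

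Ets2 in the same cells was 11.32, 11.23, 11.17 and 11.34 at 0.5 h, 12.00, 12.01, 11.92 and 11.93 at 1 h and 11.14, 11.24, 11.19 and 11.17 at 2 h. The libraries of 2 h lay below all WT libraries of that time, and those of 0.5 and 1 h overlapped WT. Its differences from WT were 0.29 (SE 0.095, adjusted p = 0.0106), -0.0062 (SE 0.095, adjusted p = 0.961) and -0.27 (SE 0.10, adjusted p = 0.0251). With WT replicates 4 to 6 alone as the control the difference was 0.50 (adjusted p = 1.34e-10) at 0.5 h, and with replicates 7 to 9 alone 0.077 (adjusted p = 0.247). The difference at 2 h missed the threshold with the replicate number as a block (-0.16, adjusted p = 0.171) and without WT replicate 5 (adjusted p = 0.0753) or Elk1-/-Elk4-/- replicate 1 (adjusted p = 0.0634), and that at 0.5 h in a fit on the compared libraries alone (adjusted p = 0.063). Etv3 at 2 h was 13.92, 13.93, 13.77 and 13.85, a difference of -0.10 with a 95% interval of -0.27 to 0.057. Among the 9 further ETS genes, Spic, known from splenic macrophages, was higher in Elk1-/-Elk4-/- cells by 1.12 (adjusted p = 1.12e-07) at 2 h. Spib was at a mean of 3.66 in Elk1-/-Elk4-/- cells and 2.44 in WT cells without LPS. It passed the filter on low values through Elk1-/-Elk4-/- libraries alone, so no test of that difference is given.

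The fourth comparison used Nfkb1[SS/AA] cells, in which p105 resists IKK. The largest change was in Ets2, which was lower than in WT cells without LPS and higher at 1 h. Etv3 was slightly higher at 0.5 h and Fli1 slightly lower at 1 h. Etv6, Elf1 and Elf4 passed at no time. In all, 4 of 18 tests passed, 2 higher and 2 lower, at 1, 1 and 2 of 6 genes at 0, 0.5 and 1 h, below the 32.0%, 32.3% and 42.5% of all genes. Ets2 was 10.29 to 10.48 (median 10.40) without LPS, 11.05 to 11.28 (median 11.16) at 0.5 h and 12.37 to 12.74 (median 12.69) at 1 h. At 1 h every mutant library lay above every WT library (11.77 to 12.15, median 11.99), and without LPS the groups overlapped. The differences were -0.28 (SE 0.076, adjusted p = 0.00257), 0.18 (SE 0.076, adjusted p = 0.053) and 0.66 (SE 0.076, adjusted p = 3.27e-12). Against WT replicates 4 to 6 alone they were -0.086 (adjusted p = 0.338), 0.40 (adjusted p = 7.21e-07) and 0.53 (adjusted p = 8.53e-11), and against replicates 7 to 9 alone -0.47 (adjusted p = 7.55e-09), -0.030 (adjusted p = 0.756) and 0.79 (adjusted p = 1.91e-18). The lower level without LPS was thus seen against 1 of the 2 WT sets and the higher level at 1 h against both. Replicate 2 at 1 h, which stood apart, had the lowest Ets2 value. Without that replicate number 6 of 18 tests passed, with Elf4 added without LPS and at 0.5 h, and the difference at 1 h was 0.71 (adjusted p = 9.81e-13). Etv3 differed at 0.5 h by 0.19 (SE 0.069, adjusted p = 0.0255). Against WT replicates 7 to 9 alone it was 0.087 (adjusted p = 0.349), and it missed the threshold with the replicate number as a block (adjusted p = 0.052) and without WT replicate 4 or 5 or Nfkb1[SS/AA] replicate 4 (adjusted p = 0.0744, 0.0783 and 0.0754). Fli1 differed at 1 h by -0.18 (SE 0.044, adjusted p = 0.000403).

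The fifth comparison used PD0325901, which blocks MKK1/2 and with it ERK1/2. Without LPS, 10 min of the inhibitor changed 0 of the 6 genes against DMSO, and 0% of 11971 genes passed in limma, with or without a trend. At an unadjusted p below 0.05 the comparison had 245 genes, 0 of them among the 6. With LPS, Fli1 was the gene that passed at both times, and it was lower than in untreated WT cells. That is 2 of 18 tests, or 1 of 6 genes at 0.5 h and at 1 h, below the 29.4% and 35.7% of all genes. Fli1 was 10.01 to 10.13 (median 10.09) at 0.5 h and 10.01 to 10.10 (median 10.06) at 1 h, against 10.13 to 10.25 (median 10.19) and 10.29 to 10.39 (median 10.33) in WT cells. The groups overlapped at 0.5 h and not at 1 h, and the differences were -0.11 (SE 0.044, adjusted p = 0.0439) and -0.27 (SE 0.044, adjusted p = 3.83e-07). The neutrophil markers summed to 305 to 449 at 1 h, against 84 to 214 in WT cells, and their part was not tested. The endothelial markers summed to 287 to 403 at 0.5 h and 260 to 362 at 1 h. In WT cells they summed to 149 to 233 and 126 to 223, lower without overlap, and their part was not tested. DMSO-treated cells, with neither inhibitor nor LPS, were also lower in Fli1 than unstimulated WT cells. They did not overlap, and the difference was -0.12 (SE 0.054, adjusted p = 0.0839). The LPS response of Fli1 with PD0325901 differed from that of WT cells by -0.028 (SE 0.070, adjusted p = 0.937) at 1 h. That response was taken against cells at 70 min of inhibitor, and the WT response against cells at the start. At 70 min Fli1 was below all libraries of 10 min of inhibitor, with a difference of -0.10 (SE 0.062, adjusted p = 0.419). The part of this baseline in the response was not tested. The difference of Fli1 from untreated WT cells at 0.5 h missed the threshold in 14 of the alternative settings.

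Ets2 under PD0325901 moved with time in the inhibitor. Without LPS it was 10.53, 10.55 and 10.53 with DMSO, 10.58, 10.61 and 10.61 at 10 min of inhibitor, 10.34, 10.42 and 10.40 at 40 min and 9.86, 9.87 and 9.87 at 70 min. The 3 libraries of 70 min were the lowest of all 119 for this gene. Against 10 min the difference was -0.21 (SE 0.11, adjusted p = 0.348) at 40 min and -0.73 (SE 0.11, adjusted p = 1.5e-07) at 70 min, where 3.58% and 6.09% of all genes passed. Ets2 alone of the 6 genes passed here, and at 70 min alone. With LPS it was 10.70 to 10.91 (median 10.81) at 0.5 h and 11.93 to 12.09 (median 12.01) at 1 h, and its differences from untreated WT cells were -0.17 (SE 0.076, adjusted p = 0.0803) and 0.039 (SE 0.076, adjusted p = 0.722). The level reached with LPS at 1 h was thus within the spread of WT cells, while the level without LPS at the same time in the inhibitor was 9.87 ± 0.0087 (SD, n = 3). Cells held in DMSO for 40 or 70 min were not analysed here, so inhibitor and time in culture cannot be told apart. Neutrophil markers summed to 157 to 270 per library at 10 min of inhibitor and 345 to 354 at 70 min. Endothelial markers summed to 372 to 411 and 296 to 367. Neither list overlapped between these times, the macrophage markers did, and the part of these markers was not tested. Etv3 with LPS was 13.25 to 13.33 (median 13.29) at 1 h, below every WT library, with a difference of -0.13 (SE 0.069, adjusted p = 0.151). Etv6, Elf1 and Elf4 differed from WT by -0.082, -0.074 and 0.090 at 1 h, each short of the threshold.

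The sixth comparison used RSKi47, which blocks RSK downstream of ERK1/2. Etv3, Etv6, Elf4 and Fli1 were higher than in untreated WT cells already without LPS. At 2 h of LPS Etv3 and Etv6 were lower than in WT cells and Ets2 was higher. In all, 18 of 24 tests passed, 14 higher and 4 lower. The counts of 5, 5, 3 and 5 of 6 genes at 0, 0.5, 1 and 2 h stand beside 53.0%, 48.2%, 52.8% and 52.1% of all genes. Inhibitor and experiment cannot be told apart here, and a solvent control with LPS was not analysed here. The neutrophil markers summed to 180 to 225 per library without LPS and 241 to 385 at 2 h, against 82 to 146 and 85 to 212 in WT cells, higher without overlap. They overlapped WT cells at 0.5 h (136 to 207 against 76 to 150) and at 1 h (205 to 344 against 84 to 214). B cell markers were lower without LPS, at 43 to 46 against 58 to 89. The part of these markers in the differences was not tested.

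Etv3 with RSKi47 was 12.50, 12.53, 12.54 and 12.39 without LPS, 13.34, 13.76, 13.78 and 13.40 at 1 h and 13.37, 13.38, 13.30 and 12.74 at 2 h. It started above all WT libraries and ended below all of them. The differences from WT ran 0.37 (SE 0.078, adjusted p = 2.64e-05), 0.42 (SE 0.085, adjusted p = 2.1e-05), 0.16 (SE 0.078, adjusted p = 0.0819) and -0.77 (SE 0.085, adjusted p = 3.58e-13) from 0 to 2 h. Etv6 was 10.30, 10.48, 10.31 and 10.41 without LPS and 11.16, 11.20, 11.12 and 10.70 at 2 h, against 9.94 to 10.14 (median 10.07) and 11.57, 11.42, 11.63 and 11.48 in WT cells. It moved in the same way, from 0.32 (SE 0.062, adjusted p = 9.83e-06) without LPS to -0.48 (SE 0.068, adjusted p = 3.69e-09) at 2 h, with no overlap at either time. Ets2 was 11.98, 11.95, 12.12 and 11.65 at 1 h and 12.27, 12.09, 12.30 and 11.98 at 2 h. Where WT cells had passed their peak, with 11.47, 11.58, 11.40 and 11.38, the treated libraries were all higher, by 0.70 (SE 0.093, adjusted p = 3.14e-10). Its smaller differences at 0 and 0.5 h were -0.21 (SE 0.085, adjusted p = 0.0283) and -0.22 (SE 0.093, adjusted p = 0.0392). They shrank to -0.020 (adjusted p = 0.828) and -0.0096 (adjusted p = 0.924) against WT replicates 4 to 6 alone. Against the other WT set alone they were larger, at -0.40 and -0.44. Each missed the threshold in 9 alternatives. Without RSKi47 replicate 4 the Ets2 difference at 0 h was -0.13 (adjusted p = 0.204).

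Fli1 with RSKi47 was 10.64, 10.69, 10.63 and 10.43 without LPS and 9.40, 9.48, 9.44 and 9.26 at 2 h. It was higher than in WT cells at all 4 times, by 0.50 (SE 0.049, adjusted p = 4.11e-15), 0.53 (SE 0.054, adjusted p = 4.55e-14), 0.26 (SE 0.049, adjusted p = 6.97e-06) and 0.27 (SE 0.054, adjusted p = 1.04e-05). The endothelial markers, of which Kdr alone passed the minimum level, were also higher, summing to 270 to 375 per library without LPS, against 144 to 250 in WT cells, and to 425 to 442 against 149 to 233 at 0.5 h, without overlap, and their part was not tested. Elf4 was 10.94, 10.95, 10.97 and 10.89 without LPS, a difference of 0.24 (SE 0.048, adjusted p = 1.33e-05). DMSO-treated cells, also from another experiment than the WT cells, differed from them by 0.24 in the same gene. Elf1 passed at 2 h alone, by 0.22 (SE 0.056, adjusted p = 0.00045), and missed the threshold in a fit on the compared libraries alone (adjusted p = 0.0981) and against WT replicates 7 to 9 alone, at 0.19 (adjusted p = 0.0522). Replicate 4 of RSKi47 stood apart and was the lowest Etv3 library at 2 h. Without it the differences at 2 h were 0.76 (adjusted p = 5.8e-11) for Ets2, -0.62 (adjusted p = 3.51e-10) for Etv3 and -0.37 (adjusted p = 3.6e-06) for Etv6.

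**Figure D2:**
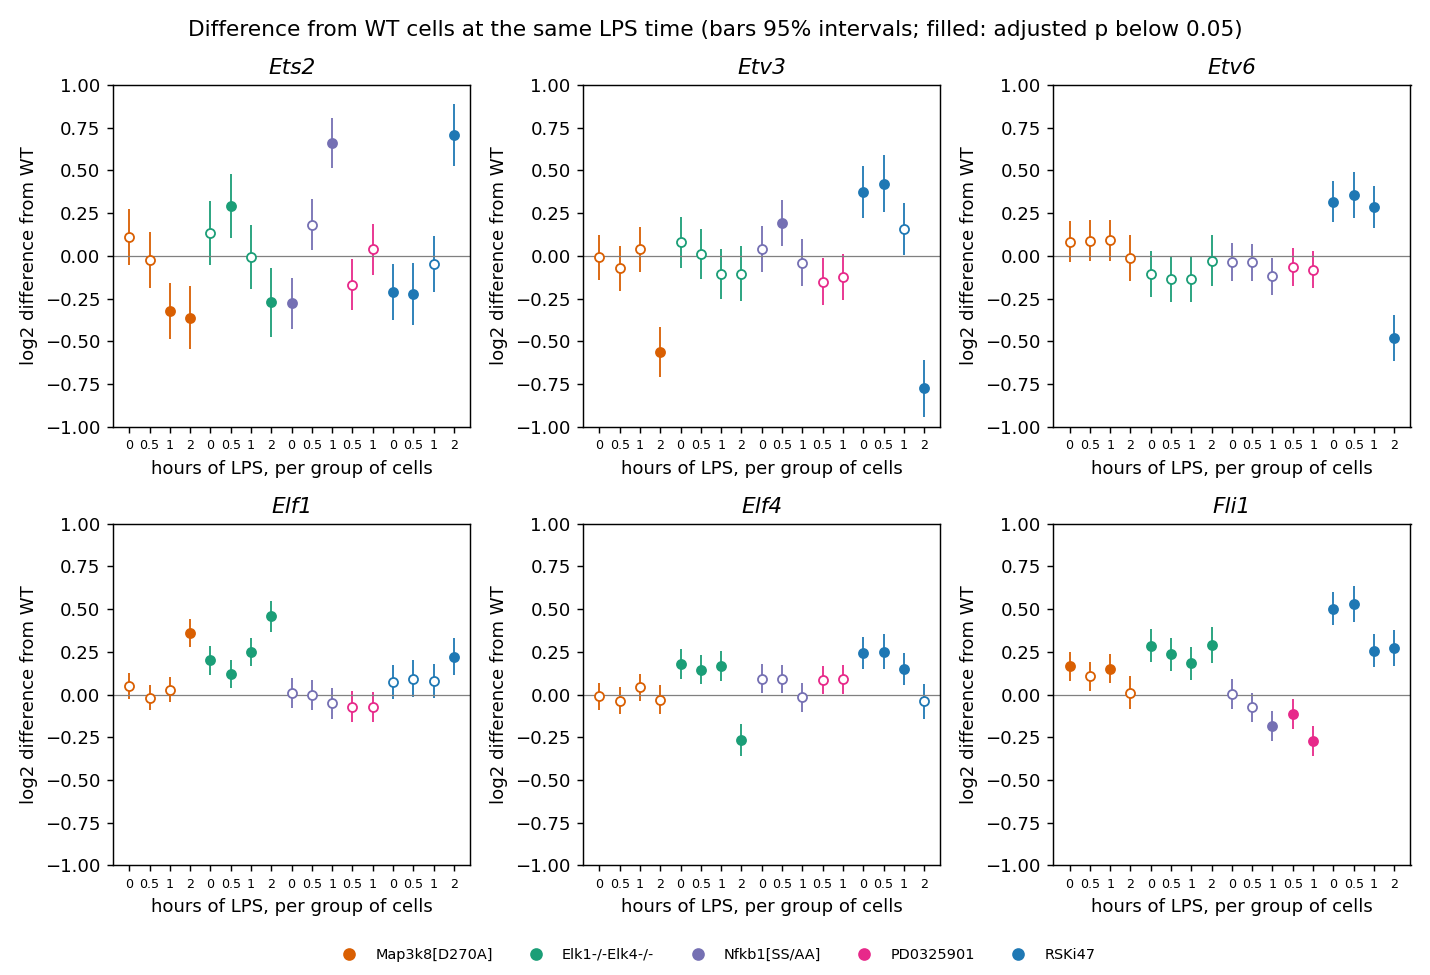
Difference from WT cells at the same LPS time (log2, vertical axis) for each of the 6 genes; the horizontal axis gives hours of LPS within each genotype or inhibitor, bars are 95% intervals and filled points passed an adjusted p of 0.05. Ets2 was 0.66 at 1 h in Nfkb1[SS/AA] cells and 0.70 at 2 h with RSKi47, and Etv3 was -0.56 and -0.77 at 2 h in Map3k8[D270A] cells and with RSKi47.

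The LPS response itself was compared next, as the rise within each genotype or inhibitor set against the rise in WT cells. This removes a constant offset between experiments, but not one that changes with LPS. With RSKi47 the cells without LPS are labelled with 10 min of inhibitor, and longer times in it without LPS were not analysed here. LPS and time in the inhibitor therefore cannot be told apart in the RSKi47 responses. In cells other than untreated WT cells, 45 of 78 tests of an LPS response passed, 36 rises and 9 falls. The shares of all genes at 0.5, 1 and 2 h were 5.08%, 41.9% and 69.5% in Map3k8[D270A] cells, 4.96%, 33.3% and 67.2% in Elk1-/-Elk4-/- cells and 5.10%, 29.0% and 62.2% with RSKi47, and at 0.5 and 1 h 14.6% and 44.4% in Nfkb1[SS/AA] cells and 14.9% and 43.6% with PD0325901. Of 78 differences in response from WT, 16 passed, 6 above 0 and 10 below. The sign is that of the change itself, so a fall that was absent counts as above and a deeper fall as below. The background of these differences was 0.109%, 2.02% and 15.5% for Map3k8[D270A] cells, 0.0589%, 1.35% and 16.9% for Elk1-/-Elk4-/- cells, 0.309% and 6.07% for Nfkb1[SS/AA] cells, 1.49% and 3.58% for PD0325901, and 0.0251%, 5.54% and 21.0% for RSKi47. All these comparisons share the WT libraries.

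Ets2 made up 7 of the 16, among them a larger rise at 0.5 h in Nfkb1[SS/AA] cells, by 0.46 (SE 0.11, adjusted p = 0.0164). Its rise at 1 h was 1.31 in WT cells, 0.88 in Map3k8[D270A] cells, 1.17 in Elk1-/-Elk4-/- cells, 2.25 in Nfkb1[SS/AA] cells, 2.14 with PD0325901 and 1.47 with RSKi47. Relative to WT it was smaller in Map3k8[D270A] cells, with a difference of -0.43 (SE 0.12, adjusted p = 0.0383), and larger in Nfkb1[SS/AA] cells by 0.94 (SE 0.11, adjusted p = 2.07e-11) and with PD0325901 by 0.84 (SE 0.12, adjusted p = 7.98e-08). The response with PD0325901 was taken against cells held in the inhibitor for as long without LPS, whose Ets2 had fallen, whereas the WT response was taken against cells at the start. At 2 h the rise was 0.79 in WT cells, 0.32 in Map3k8[D270A] cells, 0.39 in Elk1-/-Elk4-/- cells and 1.71 with RSKi47, and the differences from WT were -0.47 (SE 0.13, adjusted p = 0.00615), -0.41 (SE 0.14, adjusted p = 0.0373) and 0.92 (SE 0.13, adjusted p = 7.63e-09). With PD0325901 the level at 1 h differed from WT by 0.039, so its larger response rests on the lower baseline at 70 min. With quantile normalisation the rise at 2 h was 0.086 (adjusted p = 0.358) in Map3k8[D270A] cells and 0.12 (adjusted p = 0.286) in Elk1-/-Elk4-/- cells, and neither passed. The WT sets bear on the sizes. The Elk1-/-Elk4-/- difference at 2 h was -0.62 (adjusted p = 1.86e-08) with WT replicates 4 to 6 alone and -0.13 (adjusted p = 0.429) with WT replicates 7 to 9 alone. With WT replicates 4 to 6 and mutant replicates 1 to 3 the Map3k8[D270A] differences were -0.58 (adjusted p = 1.49e-06) at 1 h and -0.71 (adjusted p = 3.98e-09) at 2 h, and with WT replicates 7 to 9 and mutant replicates 4 to 6 -0.28 (adjusted p = 0.0646) and -0.19 (adjusted p = 0.277). The Nfkb1[SS/AA] difference at 1 h was 0.61 (adjusted p = 2.02e-07) and 1.26 (adjusted p = 1.93e-20) with the same WT sets, that of PD0325901 0.51 (adjusted p = 0.000129) and 1.16 (adjusted p = 9.43e-17), and that of RSKi47 at 2 h 0.70 (adjusted p = 2.18e-08) and 1.19 (adjusted p = 3.27e-12).

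Etv3 rose by 1.85 in WT cells at 2 h, 1.30 in Map3k8[D270A] cells, 1.67 in Elk1-/-Elk4-/- cells and 0.70 with RSKi47. The response was smaller than in WT cells with inactive TPL-2, with a difference of -0.55 (SE 0.10, adjusted p = 4.69e-05), and with RSKi47, with one of -1.15 (SE 0.11, adjusted p = 6.84e-14). In Elk1-/-Elk4-/- cells the difference was -0.18 (SE 0.11, adjusted p = 0.283). At 0.5 and 1 h Etv3 rose in every genotype and inhibitor, by 1.08 to 1.34 at 1 h, and no difference from the WT response passed. Etv6 rose at 2 h by 1.47 in WT cells, 1.37 in Map3k8[D270A] cells, 1.54 in Elk1-/-Elk4-/- cells and 0.67 with RSKi47, and with RSKi47 alone did the response differ from WT, by -0.80 (SE 0.092, adjusted p = 2.87e-11).

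Elf1 fell in WT cells at 2 h, while its change did not pass in Map3k8[D270A] cells, at -0.0086 (SE 0.038, adjusted p = 0.85), or in Elk1-/-Elk4-/- cells, at -0.060 (SE 0.046, adjusted p = 0.256). The difference from the WT response was 0.31 (SE 0.057, adjusted p = 4.75e-05) and 0.26 (SE 0.063, adjusted p = 0.00209), and the first was 0.18 (adjusted p = 0.101) within WT replicates 7 to 9 and mutant replicates 4 to 6. Elf4, level in WT cells, fell at 2 h in Elk1-/-Elk4-/- cells, with a change of -0.42 (SE 0.049, adjusted p = 7.31e-11), and with RSKi47, with one of -0.25 (SE 0.053, adjusted p = 1.74e-05), and both differed from WT, by -0.45 (SE 0.066, adjusted p = 1.32e-06) and -0.28 (SE 0.071, adjusted p = 0.00177). With WT replicates 7 to 9 alone the second difference was -0.15 (adjusted p = 0.436). Fli1 fell at 2 h in every group of cells measured then, with changes of -0.97 in WT cells, -1.13 in Map3k8[D270A] cells, -0.97 in Elk1-/-Elk4-/- cells and -1.20 with RSKi47. The fall with RSKi47 was larger than in WT cells, a difference of -0.23 (SE 0.073, adjusted p = 0.0163), and the response at 1 h was smaller, a difference of -0.25 (SE 0.070, adjusted p = 0.0174). Each missed the threshold in 3 alternatives. At 2 h these were a fit on the compared libraries alone (adjusted p = 0.0897), WT replicates 7 to 9 alone (adjusted p = 0.279) and leaving out WT replicate 6 (-0.18, adjusted p = 0.104). At 1 h they were the compared libraries alone (adjusted p = 0.0937), WT replicates 7 to 9 alone (adjusted p = 0.0534) and leaving out RSKi47 replicate 2 (adjusted p = 0.0666).

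**Figure D3:**
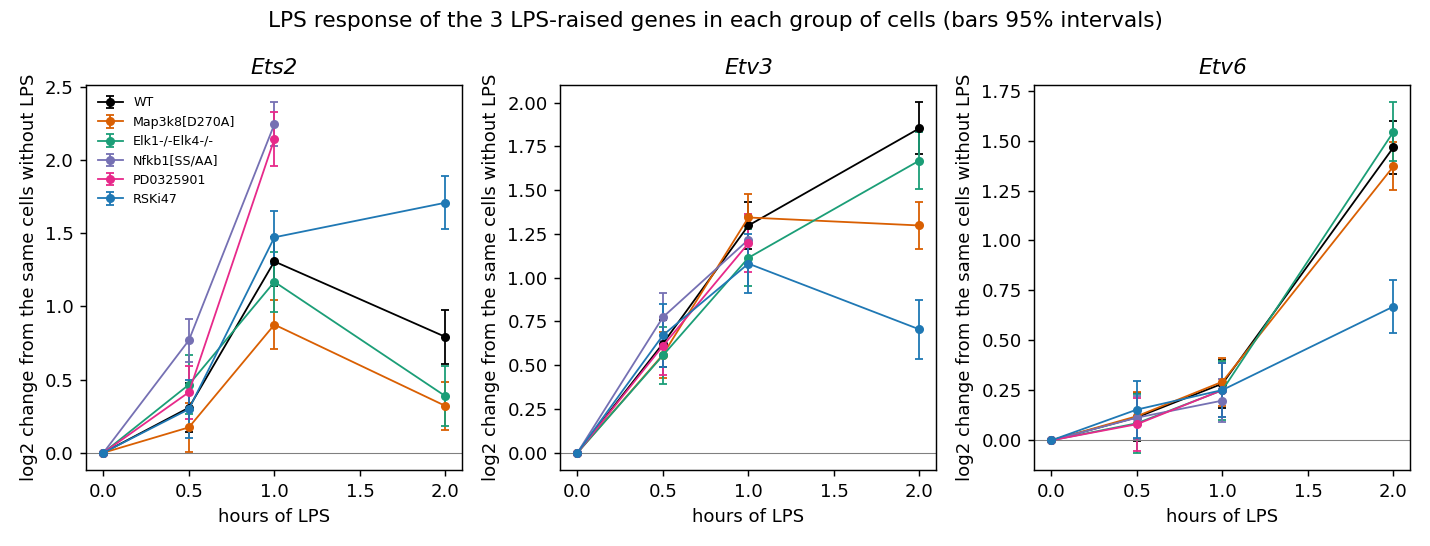
Change of Ets2, Etv3 and Etv6 from the same cells without LPS (log2, vertical axis) against hours of LPS (horizontal axis), per genotype or inhibitor, with 95% intervals. PD0325901 is set against cells held in the inhibitor for as long, and RSKi47 against cells labelled with 10 min of it. At 1 h Ets2 reached 2.25 in Nfkb1[SS/AA] cells and 2.14 with PD0325901, against 1.31 in WT cells, and at 2 h the RSKi47 line was highest for Ets2 and lowest for Etv3 and Etv6.

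Levels across all 25 groups were also put in order. Ets2 spanned the most, 2.77 between its highest and lowest group mean, from Nfkb1[SS/AA] cells at 1 h of LPS (12.63 ± 0.14, SD, n = 6) to PD0325901 alone at 70 min (9.87 ± 0.0087, SD, n = 3). These extremes did not overlap their neighbours in the order, which were RSKi47 treatment at 2 h of LPS (12.16 ± 0.15, SD, n = 4) and Nfkb1[SS/AA] cells without LPS (10.39 ± 0.069, SD, n = 6). Of its 24 neighbouring pairs, 4 did not overlap. Etv3 spanned 2.01, with WT cells at 2 h of LPS (13.97 ± 0.17, SD, n = 4) and Elk1-/-Elk4-/- cells at 2 h of LPS (13.87 ± 0.076, SD, n = 4) highest and overlapping, and PD0325901 alone at 10 min (11.96 ± 0.037, SD, n = 3) lowest. For Etv6, spanning 1.60, the WT, Map3k8[D270A] and Elk1-/-Elk4-/- cells at 2 h overlapped at the top (11.52 ± 0.092, 11.51 ± 0.24 and 11.50 ± 0.11, SD, n = 4, 6 and 4), and RSKi47 treatment at 2 h of LPS followed below them without overlap (11.05 ± 0.23, SD, n = 4). Fli1 spanned 1.60, from RSKi47 at 0.5 h (10.72 ± 0.099, SD, n = 3) to WT cells at 2 h of LPS (9.12 ± 0.12, SD, n = 4). Elf1 spanned 0.60, with WT cells at 2 h of LPS lowest (10.89 ± 0.046, SD, n = 4) and apart from the next group, and Elf4 0.49, with no neighbours in its order that did not overlap.

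**Figure D4:**
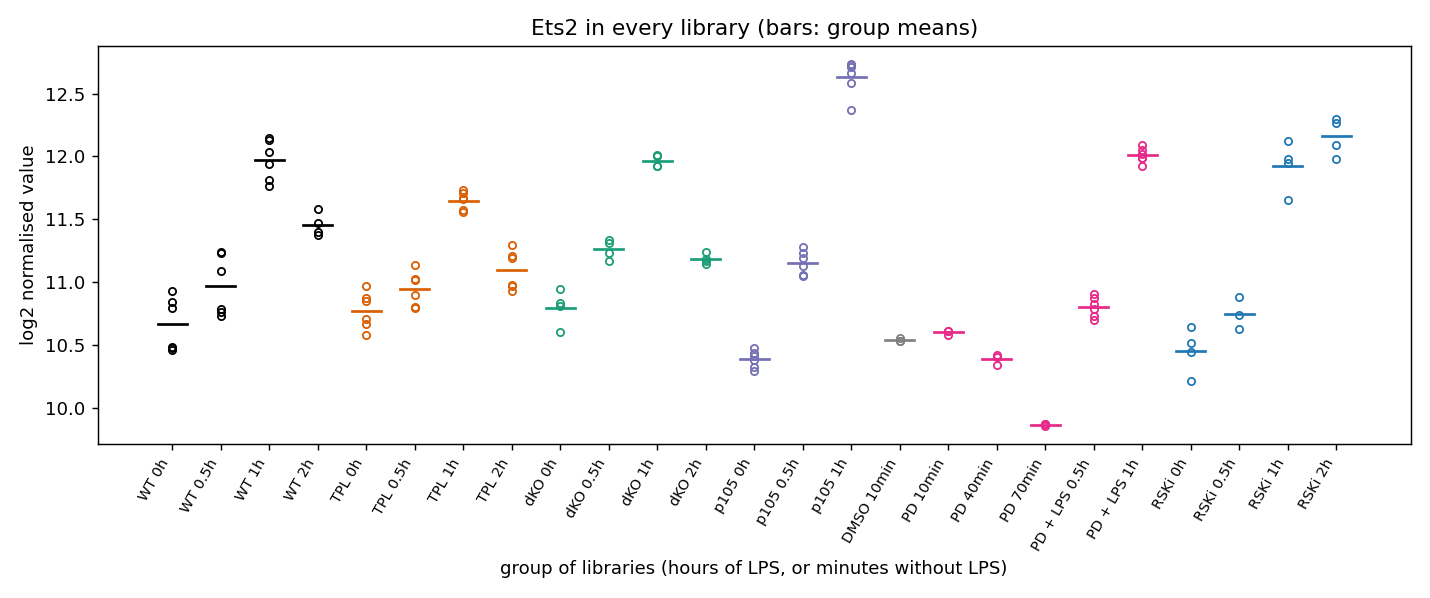
Log2 normalised value of Ets2 in all 119 libraries (circles) with group means (bars), by group on the horizontal axis, where TPL stands for Map3k8[D270A], dKO for Elk1-/-Elk4-/-, p105 for Nfkb1[SS/AA], PD for PD0325901 and RSKi for RSKi47. The 70 min PD0325901 group is lowest, at 9.87, and Nfkb1[SS/AA] cells at 1 h are highest, at 12.63.

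The genes whose 25 group means were most like those of each ETS gene, by Pearson r across groups that share libraries, baselines and experiments, were Osgin2 (0.945), Nfe2l2 (0.934), Ccdc71l (0.933) for Ets2, H2-Q5 (0.967), Sdc4 (0.956), Marcksl1 (0.953) for Etv3 and Mitf (0.977), Mark2 (0.977), Larp1 (0.973) for Etv6. For the genes that fell or stayed level they were Ikzf2 (0.954), Cdk19 (0.947), Akap11 (0.943) for Fli1, Arid4a (0.879), Rpap2 (0.848), Zfp148 (0.844) for Elf1 and Neurl1b (0.858), Wdr6 (0.832), Fam83f (0.800) for Elf4. Nfe2l2 encodes NRF2, the regulator of antioxidant genes, and Mitf a regulator of lysosomal genes. Among themselves, Etv3 was close to Ets2 (r = 0.75) and to Etv6 (r = 0.75), while Ets2 and Etv6 shared less (r = 0.33). Fli1 ran against Etv6 (r = -0.66) and with Elf1 (r = 0.61). These are descriptions over 25 groups.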

How the data were processed

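RNA-seq libraries of macrophages were made with a TruSeq kit and sequenced single-end. The deposited table holds log2 normalised expression values that the authors made from RSEM estimates over RefSeq genes of mm10. Per the submitters' processing notes the tools were STAR 2.5.1b, RSEM 1.2.29 and DESeq2 1.10.1. The notes do not say how the values were put on the log2 scale. The values ran from -2.40 to 19.81, and 1 value above 25 was set missing. All 119 columns matched a labelled sample.

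The values were tested with limma 3.58.1 in R 4.3.3, without a trend, with a mean for each group. A first fit took the 62 WT, Map3k8[D270A] and Elk1-/-Elk4-/- libraries and 11884 genes that reached 10 on a linear scale in 4 or more of them. A second fit took all 119 libraries and the 11971 genes that did so in 3 or more. P-values are two-sided and adjusted by Benjamini-Hochberg over all genes of a fit, and a gene passed at an adjusted p below 0.05. Intervals are 95% intervals of the fits. The study's methods tested counts, and the deposited unit calls for limma instead. The script was checked on simulated data.

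The 6 genes, the gene lists and the tests were chosen with earlier results of these data known. The genes named with values are the 6, Elk1, Elk4 and the 3 genes with the closest group means to each of the 6. ETS genes of a list that changed by at least 1 on the log2 scale are also given. Elk3, the other ETS genes tested, Kdr and Cd28 are named as members of their lists. Spi1 and the comparisons between times in PD0325901 were chosen after their values were seen. Promoter windows and gene positions come from RefSeq tables of GRCm38.p6.

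Libraries of the same replicate number deviated alike between times in WT cells, where all 30 correlations of deviations were over 0.1 (lowest 0.16). The same held in Nfkb1[SS/AA] cells, where all 18 were (lowest 0.14). Libraries of different numbers were not compared, and WT libraries also fall into sets of replicates 4 to 6 and 7 to 9. Sharing by number and sharing by set therefore cannot be told apart, and the labels do not say what a number shares. The alternatives were another filter, a fold threshold, median centring, quantile normalisation, a limma trend, fits on the compared libraries alone, replicate blocks, WT sets of replicates 4 to 6 and 7 to 9, averaged PD0325901 pairs, and leaving out each replicate. For both counts on the LPS response these alternatives, and leaving out the libraries that stood apart, were chosen after seeing the data.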

Additional observations from a re-analysis of the deposited data

Results flagged for a closer look

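In 4 of 120 sets of libraries, each set being 1 gene in 1 group of 4 to 6, the lowest library lay far from the others. Chance marks about 1 in 20 such sets. Etv3 with RSKi47 at 2 h was 12.74 in replicate 4, against 13.30 in the nearest library. Etv6 in Elk1-/-Elk4-/- cells at 2 h was 11.33 in replicate 3, against 11.54 in the nearest. In Nfkb1[SS/AA] cells at 1 h, Elf1 was 10.84 and Elf4 10.22 in replicate 2, against 11.17 and 10.62 in the nearest libraries.

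The LPS response differed from that of WT cells, by a test of the difference itself, in 16 of 78 comparisons. For Map3k8[D270A] cells the difference was -0.43 for Ets2 at 1 h, and at 2 h -0.47 for Ets2, -0.55 for Etv3 and 0.31 for Elf1. For Elk1-/-Elk4-/- cells at 2 h it was -0.41 for Ets2, 0.26 for Elf1 and -0.45 for Elf4. For Nfkb1[SS/AA] cells it was 0.46 for Ets2 at 0.5 h and 0.94 at 1 h, and for PD0325901 0.84 for Ets2 at 1 h. For RSKi47 it was -0.25 for Fli1 at 1 h, and at 2 h 0.92 for Ets2, -1.15 for Etv3, -0.80 for Etv6, -0.28 for Elf4 and -0.23 for Fli1.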

How the results depend on the processing

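No called difference changed sign under any alternative run, and of 117 calls of the 6 genes 87 were made under every alternative other than the fold threshold. The calls of Ets2 at 70 min of PD0325901 alone and of Elf4 with DMSO are not among the 117 and were run under no alternative. With a difference of at least 1 also required, 4 calls were made for LPS in WT cells, 0 for Map3k8[D270A], Elk1-/-Elk4-/- and Nfkb1[SS/AA] cells, 0 for PD0325901 and RSKi47, 16 for the LPS response of the other cells and 1 for its difference from WT. Within WT replicates 7 to 9 and Map3k8[D270A] replicates 4 to 6, where WT cells had a single library at 2 h, 3 calls were made against WT in place of 6, and 10 in place of 16 for differences in response. With WT replicates 4 to 6 as the control, Nfkb1[SS/AA] cells had 7 calls in place of 4. They also had 7 without Nfkb1[SS/AA] replicate 2 and RSKi47 replicate 4, and 3 to 7 with 1 replicate left out. The cause was not tested in these cases.

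The PD0325901 count of 2 was the least stable. It was 1 with no filter, with centring on the median and with PD0325901 libraries averaged in pairs, 4 in a fit on the compared libraries alone and against WT replicates 7 to 9, and 6 with quantile normalisation. It was 1 to 3 with 1 replicate left out, and 1 without any of WT replicates 7, 8 and 9 or PD0325901 replicates 1 to 5. With 1 replicate left out, calls ranged 12 to 12 for LPS in WT cells, 4 to 6 for Map3k8[D270A] cells, 12 to 14 for Elk1-/-Elk4-/- cells, 16 to 21 for RSKi47, 44 to 47 for the LPS response of the other cells and 13 to 18 for its difference from WT. The smaller rise of Ets2 in Map3k8[D270A] cells at 1 h missed the threshold in 13 alternatives (adjusted p up to 0.21), and that in Elk1-/-Elk4-/- cells at 2 h in 10 (up to 0.429). The larger rise of Ets2 in Nfkb1[SS/AA] cells at 0.5 h missed it in 2 (up to 0.401).

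With the replicate number as a replicate block, 12 calls were made for LPS in WT cells, 6 for Map3k8[D270A], 17 for Elk1-/-Elk4-/- and 6 for Nfkb1[SS/AA] cells, 4 for PD0325901, 16 for RSKi47, 47 for the LPS response of the other cells and 17 for its difference from WT. The block lost 6 calls. They were Ets2 in Map3k8[D270A] cells at 1 h (-0.18, adjusted p = 0.0904), Ets2 in Elk1-/-Elk4-/- cells at 2 h (-0.16, adjusted p = 0.171), Ets2 without LPS (-0.19, adjusted p = 0.0576) and Etv3 at 0.5 h (0.18, adjusted p = 0.052) in Nfkb1[SS/AA] cells, and Ets2 with RSKi47 without LPS (-0.12, adjusted p = 0.269) and at 0.5 h (-0.12, adjusted p = 0.298). Between WT and other cells the same numbers gave no sign of pairing: the median correlation was -0.30 over 12 pairs for Map3k8[D270A] cells. There the shared numbers, 4 to 6, are the first WT set and the second mutant set.

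The table gives no depth per library, so no counting error can be given. The shift of the median of all genes was at most 0.033 with centring and 0.098 with quantile normalisation.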
